A study of Bos indicus with 9 samples.

Results

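The expression of 10 genes of cytotoxic T cells and natural killer (NK) cells was compared over 9 bovine corpora lutea: CD8A, CD8B, CD3D, CD3E, CD2, NKG7, GNLY, GZMA, GZMB and PRF1. Members were taken by symbol from the array's probe table, with every probe set that carries that symbol alone. This gave 13 probe sets for 9 of the 10 genes, among 23965 tested probe sets and 9135 genes with a probe set of their own. GZMA had no probe set of its own. A further 2 probe sets are assigned by the table to GNLY together with LOC104968634, and they were not used. The cows were Nelore crosses (Bos indicus) of between 2 and 5 years of age, and 1 gland per cow, collected at slaughter on day 6 after ovulation, was hybridised to 1 Affymetrix bovine array. All 3 groups of 3 cows had their cycle synchronised with progesterone devices and estradiol benzoate. Superovulated and stimulated cows were also given eCG, the chorionic gonadotropin of the mare, which acts in cattle on both gonadotropin receptors. The superovulated cows had 2000 IU on day 4 of that protocol and the stimulated cows 400 IU on day 8, while control cows had none. Dose and day of eCG changed together and cannot be told apart. How many corpora lutea each cow had formed is not given in the sources used here.

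Cytotoxic T cells recognise peptides on MHC class I molecules through the T cell receptor, which signals through the CD3 chains and is helped by the coreceptor CD8. NK cells lack that receptor and respond to a balance of activating and inhibitory ligands. Both kill by releasing granules in which perforin opens the target's membrane and granzymes and granulysin act on the target cell. The corpus luteum, the progesterone-secreting gland left by the ovulated follicle, holds resident lymphocytes, and T cells are known to accumulate in it when it regresses in cattle. Day 6 lies in the period of luteal growth. In a whole gland, fewer cells of a type and less RNA per cell cannot be told apart.

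Signals are given on the log2 scale, after the lost decimal mark of the deposited values was put back. Signal of 1 probe set does not rank expression against another, so levels are compared between arrays within a probe set. The arrays resembled each other closely, with correlations of 0.988 to 0.994 within groups and 0.986 to 0.994 between groups over all probe sets, and with medians of 4.19 to 4.26. For the labelled tissue, 6 markers of luteal steroidogenic cells had a mean per array of 12.85 to 13.23. STAR, CYP11A1, HSD3B1, SCARB1 and FDX1 had probe sets between the 99.3rd and the 99.9th percentile, and LHCGR, the receptor for luteinising hormone, was at percentile 64.4. The T and NK cell genes were dim. Their mean signals lay between the 9.5th and the 53.1st percentile of all probe sets, and GNLY was the 1 gene above the median of 4.24. No present or absent call came with the values, so how much of the dimmest signals is background was not tested.

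The chains of the T cell receptor complex came first by function. CD3D, a signalling chain of CD3, had signals of 3.56, 3.43 and 3.24 in superovulated, 4.02, 3.31 and 3.47 in stimulated and 3.43, 3.52 and 3.42 in control corpora lutea (replicates 1, 2 and 3). The highest value was that of stimulated replicate 1, and stimulated replicate 2 lay below all 3 controls. A second CD3D probe set spread more widely, with 3.44, 3.31 and 2.85 in superovulated, 4.57, 3.14 and 3.62 in stimulated and 3.06, 3.37 and 2.80 in control. Both put stimulated replicate 1 on top, but their log2 fold changes between stimulated and control were 0.14 (SE 0.18) and 0.70 (SE 0.35). CD3E, the partner chain needed to assemble the receptor, had 3.40, 3.28 and 3.24 in superovulated, 3.81, 3.18 and 3.28 in stimulated and 3.25, 3.19 and 3.13 in control. Again 1 stimulated gland stood above the others and the groups overlapped. In the RefSeq gene table of assembly NIAB-ARS_B.indTharparkar_mat_pri_1.0, used for names and neighbours alone, 0 genes lie between CD3D and CD3E and 0 between CD8A and CD8B.

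CD2, an adhesion receptor of T and NK cells, had 3.30, 3.25 and 2.87 in superovulated, 4.07, 3.24 and 3.46 in stimulated and 3.31, 3.21 and 3.02 in control. Stimulated replicates 1 and 3 were above all other arrays, and replicate 2 was within their range. The other 2 CD2 probe sets were dimmer, at 2.64 to 2.94 and 2.01 to 2.42 over the 9 arrays, with stimulated-to-control log2 fold changes of 0.07 and 0.10.

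CD8A, the coreceptor chain found on cytotoxic T cells and, in cattle, on part of the NK cells, had 3.29, 3.19 and 2.48 in superovulated, 5.13, 3.18 and 3.76 in stimulated and 2.73, 3.15 and 2.52 in control. All 3 stimulated arrays lay above all 3 controls, but replicate 2 did so by a margin of the second decimal and lay inside the superovulated range. CD8B, the other chain of the coreceptor on conventional cytotoxic T cells, did not show this spread. It had 2.94, 2.82 and 2.67 in superovulated, 3.0, 2.80 and 2.82 in stimulated and 2.82, 2.83 and 2.84 in control, a range of 0.33 over all arrays against 2.65 for CD8A. With a mean at the 28.2nd percentile, the CD8B probe set was also among the dimmer ones.

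Among the genes of the killing granules GNLY had the largest differences. GNLY, which encodes granulysin, called NK-lysin in cattle, had 4.45, 4.19 and 3.46 in superovulated, 6.20, 4.39 and 6.73 in stimulated and 4.05, 4.74 and 3.05 in control. Stimulated replicates 3 and 1 stood far above the rest, while replicate 2 was below control replicate 2 and superovulated replicate 1. NK-lysin forms a family of near-identical copies in cattle, and which copies this probe set reads was not tested. GZMB, a granzyme that triggers apoptosis, had 3.17, 3.26 and 2.80 in superovulated, 4.40, 3.04 and 3.52 in stimulated and 3.12, 3.38 and 3.20 in control. Stimulated replicate 2 lay below all controls. PRF1, perforin, had 2.44, 2.65 and 2.48 in superovulated, 3.33, 2.48 and 3.04 in stimulated and 2.60, 2.61 and 2.28 in control. Replicates 1 and 3 of the stimulated group were the highest of the 9 arrays for PRF1 as well as for GZMB. The PRF1 probe set was dimmer than that of CD8B, with a mean at percentile 23.2.

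NKG7, a membrane protein of cytotoxic granules, behaved differently within the stimulated group. Its signals were 3.23, 3.72 and 3.23 in superovulated, 3.80, 3.83 and 3.60 in stimulated and 2.98, 3.33 and 2.81 in control, so that stimulated replicate 2 was on top. Stimulated and control values did not overlap, and the superovulated values spanned the gap between them and overlapped both. The second NKG7 probe set showed none of this, with 2.74 to 3.01 over the 9 arrays and group means of 2.88 ± 0.14 in superovulated, 2.85 ± 0.11 in stimulated and 2.84 ± 0.05 in control (SD, n = 3 each).

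**Figure D1:**
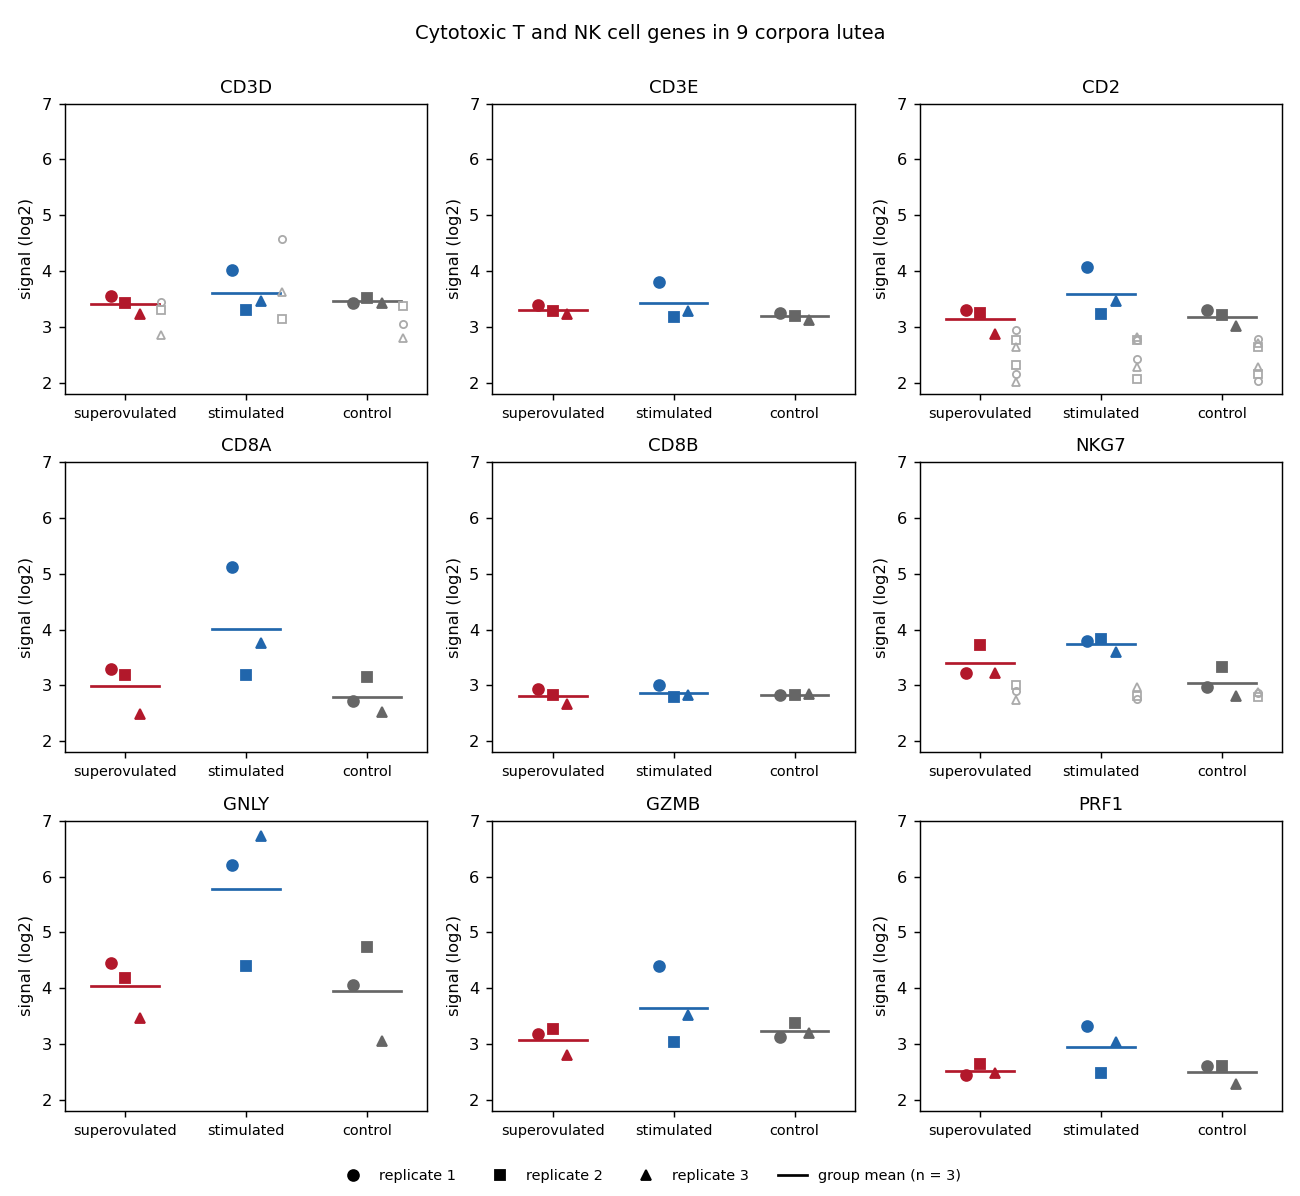
Log2 signal (y axis) of the 9 measured genes in superovulated, stimulated and control corpora lutea, with 1 point per array and a bar at the group mean (n = 3). Filled symbols are the brightest probe set of a gene and open grey symbols its other probe sets. Stimulated replicate 1 (blue circle) is the highest of the 9 arrays for 7 genes, GNLY is highest in stimulated replicate 3 and NKG7 in stimulated replicate 2.

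The comparison of stimulated with control glands asks how the genes differed after the lower dose of eCG. The mean was higher in stimulated glands for all 9 genes, with log2 fold changes of 0.04 to 1.83 on the brightest probe set and a median of 0.42. All 13 probe sets were positive, the second NKG7 probe set by 0.00 at 2 decimals (-0.21 to 0.21). These stand against a median of -0.004 over all probe sets and a positive sign in 48.8% of them. The limma test with Benjamini-Hochberg adjustment over all probe sets called 0 of the 13 probe sets, against 0.00417% of all probe sets. At an unadjusted p under 0.05, 3 of 9 genes were higher in stimulated glands, against 3.68% of all probe sets, and 0 were lower, against 2.72%. These were GNLY, CD8A and NKG7. Counted as probe sets, 3 of 13 were higher. Between stimulated and control arrays 2 genes, CD8A and NKG7, did not overlap, or 2 of 13 probe sets, against 5.79% of all probe sets in that direction.

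GNLY averaged 5.77 ± 1.23 in stimulated and 3.95 ± 0.85 in control glands (SD, n = 3 each), a log2 fold change of 1.83 with a 95% interval of 0.31 to 3.34 (adjusted p = 0.719 by limma). CD8A averaged 4.02 ± 1.0 in stimulated and 2.80 ± 0.32 in control glands, a log2 fold change of 1.23 with an interval of 0.13 to 2.32 (limma adjusted p = 0.769). For NKG7 the means were 3.74 ± 0.12 in stimulated and 3.04 ± 0.27 in control, and the log2 fold change was 0.70 with an interval of 0.29 to 1.11 (limma adjusted p = 0.565). The mean of both NKG7 probe sets gave 0.35. The remaining genes had intervals that included 0. PRF1 had a log2 fold change of 0.45 (-0.03 to 0.93), GZMB 0.42 (-0.30 to 1.14), CD2 0.40 (-0.10 to 0.91), CD3E 0.23 (-0.12 to 0.59), CD3D 0.14 (-0.27 to 0.55) and CD8B 0.04 (-0.16 to 0.25). Whether the coreceptor chains CD8A and CD8B differed from each other in this respect was not tested.

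Much of this rested on stimulated replicate 1. Without that array the log2 fold change of GNLY was 1.61, of NKG7 0.68 and of CD8A 0.67, while PRF1 had 0.26, CD2 0.16, GZMB 0.05, CD3E 0.04, CD8B -0.02 and CD3D -0.07. The median over the 9 genes was then 0.16, with 7 of 9 positive. At an unadjusted p under 0.05 only NKG7 was left, 1 of 9 genes against 3.65% of all probe sets. With the 2 remaining stimulated arrays 2 of 9 genes did not overlap, against 11.0% of all probe sets. They were CD8A and NKG7, which the values of all 3 arrays had already fixed. Other single arrays also moved the count of genes at an unadjusted p under 0.05. It was 1, NKG7, without control replicate 3, and 6 without stimulated replicate 2, when CD2, GZMB and PRF1 joined the 3 named above. It was 2 without control replicate 1, where CD8A was lost, and 2 without stimulated replicate 3, where GNLY was lost. The share of all probe sets in the fits without those other arrays is not given here. NKG7 kept a log2 fold change of 0.59 to 0.85 whichever array was left out.

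Superovulated and control glands differed little in these genes. The log2 fold changes ran from -0.16 to 0.36 with a median of 0.03, against 0.002 over all probe sets, and 5 of 9 were positive, against 50.8% of all probe sets. None of the 13 probe sets passed the limma test, 0 against 0.0% of all probe sets. At an unadjusted p under 0.05, 0 genes were higher, against 2.59% of all probe sets, and 0 were lower, against 3.61%. Likewise 0 genes were higher without overlap, against 5.17%, and 0 lower without overlap, against 5.7%. The largest log2 fold change was that of NKG7, with means of 3.40 ± 0.29 in superovulated and 3.04 ± 0.27 in control (SD, n = 3 each), a difference of 0.36 with a 95% interval of -0.05 to 0.76 (limma adjusted p = 0.818). The lowest was that of GZMB, at 3.08 ± 0.24 in superovulated and 3.23 ± 0.13 in control, a difference of -0.16 (-0.88 to 0.56). These intervals bound the difference unequally. For CD8B it was -0.02 (-0.22 to 0.19) and for CD3E 0.12 (-0.24 to 0.47). For GNLY it was 0.09 (-1.43 to 1.6) and for CD8A 0.19 (-0.91 to 1.29). CD3D, CD2 and PRF1 had -0.04, -0.04 and 0.03. Single arrays decided the sign of the median, which was -0.06 without control replicate 3, -0.08 without superovulated replicate 1 and -0.02 without superovulated replicate 2. The count of positive genes was 3 without control replicate 3 and 8 without superovulated replicate 3, and 1 gene, NKG7, was higher at an unadjusted p under 0.05 without control replicate 2. The share of all probe sets in those fits is not given here.

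Superovulated and stimulated glands share neither dose nor day, and the control arrays do not enter this difference except through the shared spread. All 9 genes had the lower mean in superovulated glands, so 0 of 9 were positive against 51.3% of all probe sets, and 1 of 13 probe sets was positive, the second one of NKG7. The log2 fold changes ran from -1.74 to -0.06 with a median of -0.42, against 0.005 over all probe sets. By limma 0 of 13 probe sets passed, against 0.00417% of all probe sets. At an unadjusted p under 0.05 GNLY was lower, 1 of 9 genes against 5.59% of all probe sets, and 0 were higher, against 4.06%. No gene was lower without overlap, 0 against 6.89%. GNLY averaged 4.03 ± 0.52 in superovulated and 5.77 ± 1.23 in stimulated glands (SD, n = 3 each), a log2 fold change of -1.74 with a 95% interval of -3.25 to -0.22 (limma adjusted p = 0.483). CD8A had -1.04 (-2.13 to 0.06), GZMB -0.58 (-1.30 to 0.14), CD2 -0.45 (-0.96 to 0.06), PRF1 -0.42 (-0.90 to 0.05) and NKG7 -0.35 (-0.76 to 0.06). CD3D, CD3E and CD8B had -0.19, -0.12 and -0.06. The replicate number was also fitted as a block, since same-numbered arrays of these groups deviated together. That block spans all 9 arrays, controls included. With it 2 genes were lower at an unadjusted p under 0.05, CD2 and NKG7, and GNLY was not. The share of all probe sets in that fit is not given here.

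Without stimulated replicate 1 the median difference between superovulated and stimulated glands was -0.21, and 3 of 9 genes were positive. GNLY then had -1.53 and CD8A -0.48. In that fit 0 genes were lower at an unadjusted p under 0.05, against 5.02% of all probe sets, and 0 were lower without overlap, against 11.5%. The count was also 0 without stimulated replicate 3 and without superovulated replicate 3, and it was 5 without stimulated replicate 2. Without superovulated replicate 2 it was 1, with NKG7 in the place of GNLY. The share of all probe sets in the fits without those other arrays is not given here. Over all 3 groups, the moderated F test passed 0 of 13 probe sets, against 0.00417% of all probe sets. At an unadjusted p under 0.05 it called 2 of 9 genes, NKG7 and GNLY, against 7.69% of all probe sets. Their adjusted p by limma was 0.544 for NKG7 and 0.640 for GNLY.

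**Figure D2:**
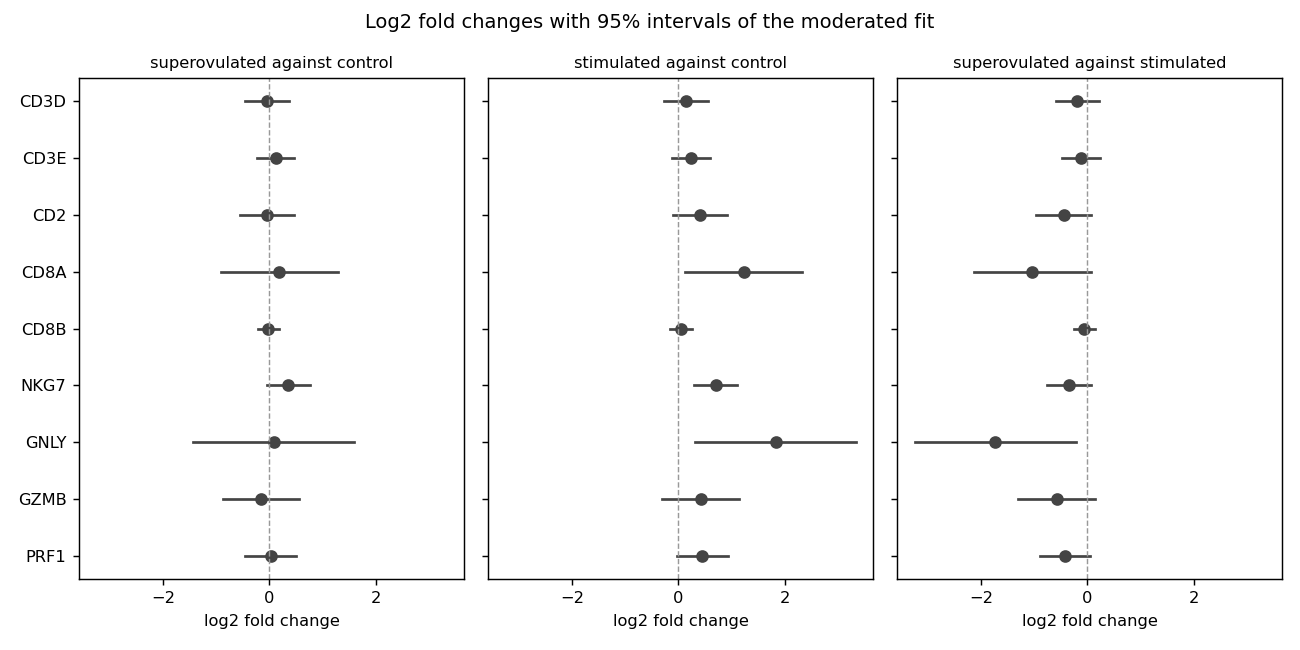
Log2 fold change (x axis) of each of the 9 genes with its 95% interval from the moderated fit, for superovulated against control, stimulated against control and superovulated against stimulated glands. In stimulated against control the intervals of CD8A, NKG7 and GNLY lie above 0, in superovulated against stimulated that of GNLY lies below 0, and in superovulated against control all include 0.

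Averaged over the 9 genes, the arrays differed within groups as well as between them. The mean signal was 3.31, 3.31 and 2.94 in superovulated, 4.19, 3.27 and 3.74 in stimulated and 3.15, 3.33 and 2.92 in control glands. Stimulated replicate 1 was highest for 7 of the 9 genes and among the highest 2 arrays for all 9, whereas it was highest for 12% of all genes on the array. Stimulated replicate 3 was among the highest 2 for 5 genes. Stimulated replicate 2 lay within the range of the other groups, apart from NKG7. The lowest values were those of superovulated replicate 3 for 5 genes and control replicate 3 for 4. Over the 9 arrays the 36 pairs of genes had Pearson correlations of 0.22 to 0.96 with a median of 0.79. Without stimulated replicate 1 the median was 0.51. These are descriptions, since the points share arrays and 1 array sets much of the spread. The 3'-to-5' differences of 5 control transcripts, a sign of RNA quality, ranked stimulated replicate 1 between 3rd and 9th of the 9 arrays.

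The gene most like the mean of the 9 was CD52, a small surface glycoprotein of lymphocytes and other leukocytes, with r = 0.975 over 9 arrays (0.939 without stimulated replicate 1), out of 6365 genes at or above the median signal. CD52 had 4.86, 4.50 and 4.11 in superovulated, 6.32, 4.50 and 5.19 in stimulated and 4.21, 4.44 and 3.91 in control glands. It put the same stimulated arrays on top, with a log2 fold change of 1.15 between stimulated and control (limma adjusted p = 0.738). Next came PAF1, IQCC, LOC510988 and LRP5, with r of 0.958, 0.945, 0.942 and 0.936. PAF1 moved within 9.02 to 9.15 only, so that its likeness is one of shape and not of size. With 9 arrays and 6365 candidates, high correlations arise easily, and they carry no test.

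Other genes of T and NK cells were read from 7 lists. In 0 of them did any gene pass the limma test in any comparison, so the counts that follow are at an unadjusted p under 0.05. For stimulated against control they stand against 3.68% of all probe sets higher and 2.72% lower, for superovulated against control against 2.59% higher and 3.61% lower, and for superovulated against stimulated against 4.06% higher and 5.59% lower. Of 13 measured genes of the T cell receptor complex and its signalling, 0 were higher and 0 lower in stimulated than in control glands, with a median log2 fold change of 0.00. CD3G, the CD3 chain missing from the members, was also highest in stimulated replicate 1, with 3.53, 3.76 and 2.81 in superovulated, 4.42, 3.28 and 3.75 in stimulated and 3.24, 3.34 and 2.79 in control (log2 fold change of stimulated against control 0.70, SE 0.34). CD4, the coreceptor of helper T cells, was dim, at the 13.7th percentile, with a log2 fold change of -0.13. CD5, a receptor that dampens T cell signalling, was the 1 gene of this list higher in superovulated than in control glands, by 0.22 (limma adjusted p = 0.719). It was also the 1 gene higher in superovulated than in stimulated glands, by 0.16 (limma adjusted p = 0.459). Its probe set was dim too, at percentile 13.9.

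Of 14 measured NK cell and activating receptors, 3 were higher in stimulated than in control glands, 0 were lower, and the median was 0.09. FCGR3A, the low-affinity IgG receptor CD16 of NK cells and macrophages, had 3.50, 3.74 and 3.47 in superovulated, 4.50, 4.33 and 4.57 in stimulated and 3.67, 3.28 and 3.22 in control. All 3 stimulated glands were above the other 6, with log2 fold changes of 1.08 against control (SE 0.14, limma adjusted p = 0.201) and -0.90 for superovulated against stimulated (limma adjusted p = 0.215). SLAMF7, a receptor of NK and plasma cells, had 0.51 between stimulated and control, and NCR3, the activating receptor NKp30, had 0.44. TYROBP, an adaptor chain of NK and myeloid receptors, averaged 1.43 higher in stimulated and 1.39 higher in superovulated than in control glands, with limma adjusted p of 0.794 and 0.818.

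Of 13 further genes of cytotoxic granules and death ligands, 2 were higher and 1 was lower in stimulated than in control glands, with a median of -0.01. LTB, a membrane-anchoring chain of lymphotoxin, had 0.67 (SE 0.22), and its other probe set had -0.06. SERPINB9, an inhibitor of granzyme B, had 0.23 (SE 0.08), and its other 2 probe sets had 0.07 and 0.05. SERPINB9 was also the 1 gene of this list higher in superovulated than in control glands, by 0.33 (limma adjusted p = 0.703), where its other probe sets had 0.05 and 0.08. UNC13D, which primes granules for release, had -1.11 (SE 0.42), and its other 2 probe sets had -0.43 and -0.66. Among 6 effector transcription factors 0 were called in that comparison. ID2 was lower in superovulated than in control glands by -0.23 (limma adjusted p = 0.801), and its other probe set had -0.66. STAT4, which carries interleukin-12 signals, was lower in superovulated than in stimulated glands by -1.29 (limma adjusted p = 0.390). Its second, much dimmer probe set had 0.07.

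Of 20 cytokines, chemokines and receptors that draw or sustain T and NK cells, 2 were higher in stimulated than in control glands, the chemokines CCL3 and CCL4. CCL3, a chemokine made by activated leukocytes, had 4.26, 4.21 and 4.31 in superovulated, 4.82, 4.67 and 4.71 in stimulated and 4.34, 4.48 and 4.48 in control, so that stimulated values lay above all others. Its log2 fold change was 0.30 for stimulated against control (limma adjusted p = 0.530) and -0.47 for superovulated against stimulated (limma adjusted p = 0.215). The other 2 CCL3 probe sets had 0.79 and -0.06 for stimulated against control, and neither kept the stimulated values apart. On the one at 0.79, stimulated replicate 2 was at 3.51 and control replicate 2 at 3.87. CCL3 was also lower in superovulated than in control glands, by -0.17 (limma adjusted p = 0.801), where its other probe sets had -0.11 and -0.0. CCL4, a close relative of CCL3, had 3.24, 3.55 and 3.0 in superovulated, 5.11, 3.55 and 4.19 in stimulated and 3.37, 3.58 and 3.07 in control. As for CD8A and GZMB, stimulated replicates 1 and 3 were on top. CCL4 was lower in superovulated than in stimulated glands by -1.02 (limma adjusted p = 0.465). Of 9 genes of MHC class I molecules, their peptide loading and other NK receptor ligands, 2 were higher in stimulated than in control glands. They were TAPBP, a chaperone of peptide loading, at 0.27 (SE 0.08), and B2M, the light chain, at 0.33 (SE 0.12). In superovulated against control glands TAPBP was higher by 0.21 and NECTIN2 lower by -0.38 (limma adjusted p = 0.801 for each). The other 2 NECTIN2 probe sets had 0.15 and -0.6. Of 9 checkpoint and regulatory T cell genes 1 was higher, FOXP3, the factor of regulatory T cells, at 0.17, on a probe set dim enough to stand at percentile 11.1.

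**Figure D3:**
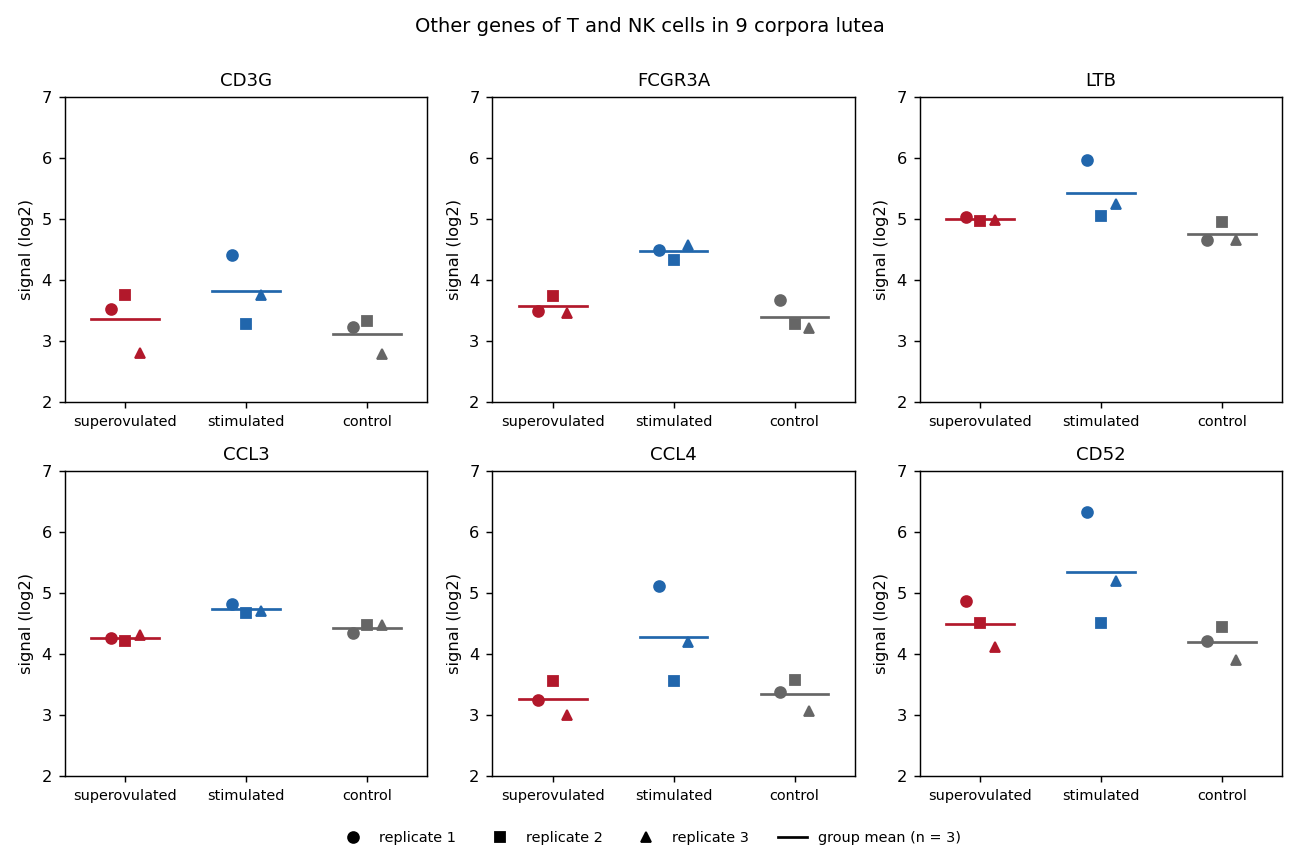
Log2 signal (y axis) of 6 other leukocyte genes in superovulated, stimulated and control corpora lutea, with 1 point per array and a bar at the group mean (n = 3). The brightest probe set of each gene is shown. On it FCGR3A and CCL3 are higher in all 3 stimulated arrays than in the other 6, which the other CCL3 probe sets do not show. CD3G, CCL4, LTB and CD52 have their highest value in stimulated replicate 1.

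Markers of other leukocytes differed between arrays too, and their part in the results above was not tested. In these lists 0 genes passed the limma test in any comparison, and counts are again at an unadjusted p under 0.05, to be set against the same shares of all probe sets. The mean of 7 pan-leukocyte markers was 7.34, 7.72 and 6.86 in superovulated, 8.07, 7.63 and 7.43 in stimulated and 6.68, 7.38 and 6.06 in control glands. In stimulated glands 4 of 7 were higher than in control, and in superovulated glands 1 of 7. Superovulated glands had 1 of 7 lower than stimulated glands and 0 higher. For 9 macrophage and dendritic cell markers the mean was 5.94, 7.26 and 5.88 in superovulated, 6.05, 7.48 and 6.86 in stimulated and 5.41, 5.97 and 4.58 in control. This list was highest in stimulated replicate 2, the array that was lowest of its group in T and NK cell genes, and 6 of its 9 genes were higher in stimulated than in control, against 3.68% of all probe sets. In superovulated against control 3 of 9 were higher, against 2.59% of all probe sets, namely AIF1 by 1.63, CD68 by 1.38 and CD14 by 2.70, which were picked out after their values were seen. In superovulated against stimulated 1 of 9 was lower, against 5.59% of all probe sets, and 0 were higher, against 4.06%. For 4 neutrophil markers the mean was 7.75, 8.51 and 7.37 in superovulated, 6.17, 5.39 and 5.35 in stimulated and 7.06, 7.96 and 8.41 in control, with 3 of 4 lower in stimulated than in control, 1 of 4 lower in superovulated than in control and 3 of 4 higher in superovulated than in stimulated. The mean of 5 B cell and plasma cell markers lay between 3.57 and 3.98 on all arrays, with 0 called in any comparison.

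**Figure D4:**
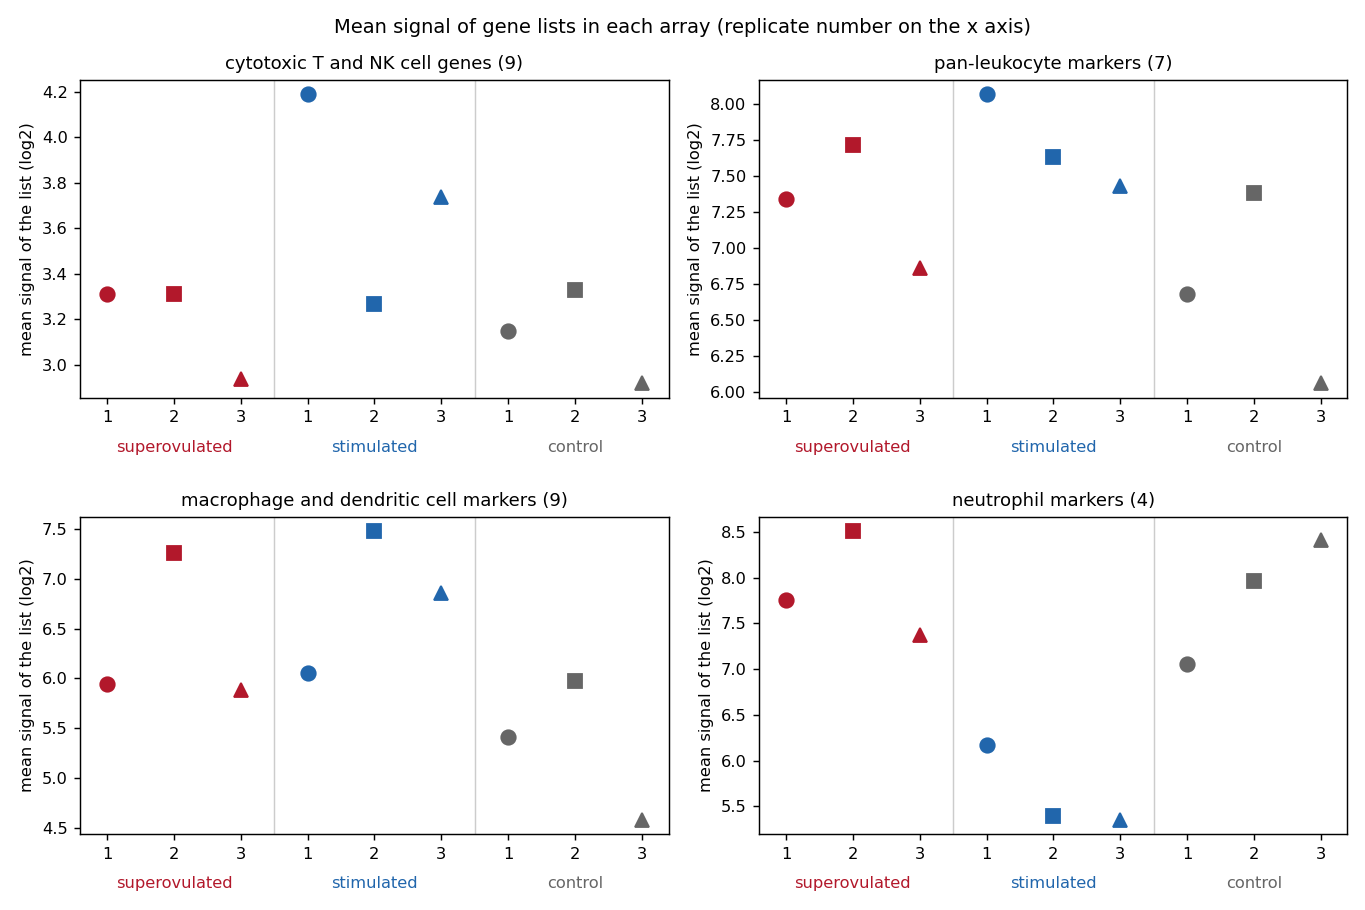
Mean log2 signal (y axis, a separate scale per panel) of the 9 cytotoxic T and NK cell genes and of 3 marker lists on each array, by group and replicate number (x axis). The T and NK cell mean is highest in stimulated replicate 1 at 4.19, the macrophage and dendritic cell mean in stimulated replicate 2 at 7.48, and the neutrophil mean is lowest in the 3 stimulated arrays at 5.35 to 6.17.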

How the data were processed

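The deposited table holds log2-like signals of 24128 probe sets on 9 arrays in no standard unit, because the authors' deposited values have lost their decimal mark. How probes were summarised and normalised, and the log base, is not stated in the labels. The mark was restored from the values. Runs that could be read as 1.x or 1x.x (15.5% of cells) were settled from the probe set's other arrays or its spread, at a posterior of 0.95, and 53 probe sets that stayed undecided were left out. The 13 probe sets described had no such run. Values between 0.85 and 15.36 resulted, and arrays were not normalised further.

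Each probe set was fitted with limma 3.58.1 (R 4.3.3; lmFit, eBayes) on all 9 arrays, 1 mean per group, without a filter on low values, 2-sided, with Benjamini-Hochberg adjustment over 23965 probe sets and a threshold of 0.05. The probe set with the highest mean stands for a gene. Counts of genes use that probe set alone, while the shares beside them are over all tested probe sets, with or without a symbol. Gene names are those of the array's probe table, which gives 13256 tested probe sets 1 symbol, 84 several and 10625 none, and 8 of the 10 symbols stand in the RefSeq table. Arrays give no read depth, and their number limits the precision. Replicates are labelled as biological.

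Members, lists and tests were chosen with earlier results of these data known. Named outside the members are the 3 genes of smallest p per list and comparison, and the 5 genes of highest correlation; of these the text gives a selection. The mean over the 9 genes, the pairwise correlations and the counts at an unadjusted p under 0.05 are descriptions.

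Titles number replicates 1 to 3 in each group without naming what a number shares. Correlations of deviations from the group means between arrays of the same number were 0.202, 0.379 and 0.158 for superovulated and stimulated, all over 0.1, so that block is given beside that comparison. They were 0.077, 0.352 and 0.151 for superovulated and control, and 0.152, 0.276 and -0.04 for stimulated and control. Alternatives were quantile normalisation, a posterior of 0.99, probe sets without open runs, a filter at the median signal, a variance trend, the replicate block, fits on the 2 groups compared, the mean of all probe sets of a gene, and each array left out in turn.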

Additional observations from a re-analysis of the deposited data

How the results depend on the processing

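None of the members' log2 fold changes passed the limma threshold under any alternative tried, and 419 of 435 alternative values kept their sign. The exceptions without a left-out array were CD3D at 0.04 and CD2 at 0.01 for superovulated against control with the mean of all probe sets. Leaving out 1 array at a time gave, for stimulated against control, -0.02 to 0.08 for CD8B and -0.07 to 0.29 for CD3D. For superovulated against control it gave -0.08 to 0.06 for CD8B, -0.12 to 0.04 for CD3D, -0.13 to 0.09 for CD2, -0.36 to 0.48 for GNLY and -0.08 to 0.08 for PRF1. For superovulated against stimulated it gave -0.13 to 0.01 for CD8B, -0.34 to 0.02 for CD3D and -0.24 to 0.07 for CD3E.

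Over the 9 genes the median was 0.16 to 0.66 for stimulated against control, -0.08 to 0.09 for superovulated against control and -0.63 to -0.21 for superovulated against stimulated when 1 array was left out. The superovulated-to-control median was negative without control replicate 3, superovulated replicate 1 or superovulated replicate 2. Positive genes then numbered 7 to 9, 3 to 8 and 0 to 3 in these comparisons. Genes at an unadjusted p under 0.05 numbered 1 to 6 higher for stimulated against control, 0 to 1 higher for superovulated against control and 0 to 5 lower for superovulated against stimulated. For stimulated against control the replicate block gave 4 genes higher, with CD2 added, and the variance trend gave 4, with PRF1 added. The fit on those 2 groups alone gave 2, without CD8A. The replicate block gave 1 gene higher, NKG7, for superovulated against control, and 2 lower for superovulated against stimulated, and the variance trend gave 2 lower there, CD8A and GNLY. Apart from the fit without stimulated replicate 1, the share of all probe sets in these fits is not given here. A filter at the median signal leaves GNLY alone, with medians of 1.83 for stimulated against control, 0.09 for superovulated against control and -1.74 for superovulated against stimulated, and 1 gene positive and 1 at an unadjusted p under 0.05 for stimulated against control, and 1 positive for superovulated against control.

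Passing probe sets over the whole array numbered 1 by the F test (1 to 2 with 1 array left out) and 1 for stimulated against control (3 with the replicate block, 0 to 2 with 1 array left out). They numbered 0 for superovulated against control (1 on those groups alone, 0 to 1 with 1 array left out). For superovulated against stimulated they numbered 1 (2 with quantile normalisation, 2 without open runs, 1 to 3 with 1 array left out). Where other settings moved a value, the cause was not tested. With an array left out, its group keeps 2 arrays and is assumed to vary like the others.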

Other observations

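T cell receptor genes outside the lists were read after the probe table had been seen. TCRA, the alpha chain, has 24 probe sets, with log2 fold changes of -0.15 to 0.45 and a median of -0.02 for stimulated against control. Their mean signals lay between percentiles 0.9 and 57.8, and many were dim. Most of the 24 share 1 stem in their names, so they may not be separate readings. Of the 24, 2 were highest in stimulated replicate 1. At an unadjusted p under 0.05, 1 was higher in stimulated than in control, against 3.68% of all probe sets. In superovulated glands 3 were higher than in control, against 2.59%, and 2 were higher than in stimulated, against 4.06%. In these comparisons 0 were lower, against 2.72%, 3.61% and 5.59% in the same order. The 3 had log2 fold changes of 0.34, 0.25 and 0.18 for superovulated against control, each with its highest signal in superovulated replicate 2 (limma adjusted p of 0.796 to 0.798). The one at 0.45 for stimulated against control (SE 0.18, limma adjusted p = 0.777) had 3.91, 3.85 and 3.53 in superovulated, 4.45, 3.84 and 3.95 in stimulated and 3.50, 3.84 and 3.53 in control glands. Of the gamma chain constant genes, used by the gamma delta T cells that are abundant in cattle, TRGC4 had a median of 0.31 over 3 probe sets and TRGC6 had 0.12 and 0.21 on 2 probe sets. These probe sets were dim, at percentiles 9.0 to 28.6 for TRGC4 and 6.4 and 10.4 for TRGC6. For TRGC4 2 of 3 probe sets, and for TRGC6 2 of 2, were highest in stimulated replicate 1.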
